A study of Mus musculus with 6 samples.

Results

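Interferon-stimulated genes were followed in 6 RNA libraries of mouse Achilles tendon, the cord that joins the calf muscle to the heel. The set holds 45 genes, taken by symbol from a list of genes that interferons switch on. The list uses no measured value, but it was chosen with earlier results of these data known. Of these, 43 had an entry in the deposited table of 21878 genes, and Mx1 and Mx2 are not analysed here. A group of 3 libraries carries the treatment label sham (sham 1 to 3), and a group of 3 carries the label Achilles tendon amputation (cut 1 to 3, called cut tendon here). The series title places the samples in a study of heterotopic ossification after trauma, which is bone formed outside the skeleton. Strain, sex, age, genotype and time after surgery are not given in the sources used here. Nothing in the labels ties a replicate to an animal of its own, and the spread behind each p-value is that among these libraries, in part perhaps technical.

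Interferons are secreted proteins that cells release when sensors detect foreign or misplaced nucleic acid, and that T and natural killer cells release when activated. Type I interferons bind the receptor formed by IFNAR1 and IFNAR2, whose kinases activate a complex of STAT2 and IRF9 that settles on a DNA motif called the interferon-stimulated response element. Type II interferon, the product of Ifng, binds another receptor and acts through a motif called the gamma-activated site. The induced genes encode more sensors and transcription factors of the same pathway, proteins that block viral RNA, protein synthesis or release, and GTPases that attack the vacuoles of intracellular microbes.

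The motif through which type I interferon acts was found before the start of some of these genes, and examples, all of them genes with the motif, are printed to show its form. Promoters were taken from a RefSeq table on GRCm38.p6, in which 33 of the 43 genes were matched with 37 promoters. The response element was searched as GAAANNGAAA and the gamma-activated site as TTCNNNGAA, on both strands, in the 250 bases before each start, and neighbouring matches could overlap. In each line the 150 bases before the start are given 5′ to 3′ on the strand of the gene, and capitals mark the response element on either strand, where TTTC stands for GAAA on the other strand. Bst2 and Oas1a rose in cut tendon, Isg15 and Ifit1 are textbook type I targets that did not pass the test, and Irgm1, Igtp and Gbp2 belong to the GTPases, whose fold changes were all negative.
Bst2: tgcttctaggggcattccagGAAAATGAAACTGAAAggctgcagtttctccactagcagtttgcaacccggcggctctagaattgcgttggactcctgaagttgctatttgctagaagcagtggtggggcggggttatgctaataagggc
Oas1a: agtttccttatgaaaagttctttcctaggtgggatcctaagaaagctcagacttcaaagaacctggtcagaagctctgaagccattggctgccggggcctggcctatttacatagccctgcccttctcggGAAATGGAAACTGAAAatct
Isg15: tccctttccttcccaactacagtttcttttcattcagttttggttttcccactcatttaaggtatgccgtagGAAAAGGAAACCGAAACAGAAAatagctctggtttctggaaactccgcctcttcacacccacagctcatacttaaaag
Ifit1: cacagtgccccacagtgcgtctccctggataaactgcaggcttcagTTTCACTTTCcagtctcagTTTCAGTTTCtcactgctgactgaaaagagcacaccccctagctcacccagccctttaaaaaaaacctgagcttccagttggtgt
Irgm1: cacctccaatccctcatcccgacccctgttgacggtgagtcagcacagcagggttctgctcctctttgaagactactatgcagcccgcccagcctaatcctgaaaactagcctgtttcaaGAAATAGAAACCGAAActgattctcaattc
Igtp: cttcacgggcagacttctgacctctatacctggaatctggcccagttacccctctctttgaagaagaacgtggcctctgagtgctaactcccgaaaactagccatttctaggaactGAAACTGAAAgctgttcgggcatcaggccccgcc
Gbp2: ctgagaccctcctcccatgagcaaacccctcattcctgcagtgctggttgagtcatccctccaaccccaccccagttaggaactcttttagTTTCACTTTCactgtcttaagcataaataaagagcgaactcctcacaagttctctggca
These stretches lie at chr8:71537473-71537622 (Bst2, minus strand), chr5:120907526-120907675 (Oas1a, minus), chr4:156200819-156200968 (Isg15, minus), chr19:34640739-34640888 (Ifit1, plus), chr11:48871421-48871570 (Irgm1, minus), chr11:58199406-58199555 (Igtp, plus) and chr3:142620513-142620662 (Gbp2, plus). The response element was found in the promoters of 15 of 33 members, and in 15 of 37 promoters (40.5%), against 978 of 32851 promoters in the whole table (2.98%). The gamma-activated site was found in 6 of 37 promoters of members (16.2%), against 7.02% of all promoters. The response element stood before 5 of the 10 members that rose, before 10 of the 22 matched members that were not called, and before all 4 GTPases with a promoter in the table. The gamma-activated site stood before 4 of the 10 members that rose, 2 of the 22 not called and 1 of the 4 GTPases. A match describes these letters only.

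The interferon-stimulated genes were mixed: some rose in cut tendon, a few fell, and most did not pass the test. The counts of the groups were set against each other with the quasi-likelihood test of edgeR, adjusted over all 14561 genes tested (Benjamini-Hochberg), and a gene was called at an adjusted p under 0.05. Of the 43 members, all of which passed the filter on low counts, 10 rose, 2 fell and 31 were not called. The 10 that rose were 23.3% of the members, beside 20.4% of all genes tested, and the 2 that fell were 4.65%, beside 12.3%. The share that rose is near that of all genes and is not a result about these members, while the share that fell was below that of all genes, a difference that was not tested. The median log2 fold change was 0.21 (29 positive, 14 negative), beside -0.02 over all genes tested. In 14 members (32.6%) every cut library stood above every sham library, against 28.7% of all genes, and in 5 members (11.6%) every cut library stood below, against 26.1%.

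The libraries differed in tissue content along with the operation, and cut 3 stood apart from cut 1 and cut 2. Depth ran from 23916839 to 31346730 counts per library. Levels are given as CPM (the count scaled by library size, with TMM normalization) in each library, with mean ± SD over 3 libraries. The summed level of 30 skeletal muscle markers was 194471 to 225944 CPM in sham and 15441, 5732 and 173243 CPM in cut 1, 2 and 3, and edgeR called none of the 30 (3 had an unadjusted p under 0.05; DESeq2's Wald test called 9 lower and limma-voom 0). The 12 macrophage and monocyte markers all rose, with sums of 336 to 438 CPM in sham and 1285, 1090 and 1390 CPM in cut 1, 2 and 3. All 8 T and natural killer cell markers had counts, but only 5 passed the filter on low counts, and 3 of these rose. The sums of the 8 were 1.30 to 1.78 CPM in sham and 12.8, 9.96 and 16.8 CPM in cut tendon, where Cd4 gave most of the sum. Of 8 endothelial markers 4 fell, with sums of 953 to 1105 CPM in sham and 640, 481 and 755 CPM in cut tendon. Of the 8 tendon and fibroblast markers 5 rose and 3 were not called. Tnmd, Scx and Mkx, which define tendon cells, are among the 8 with counts. The list also holds Thbs4, Fmod, Pdgfra, Col1a1 and Col3a1, so its count does not stand for tendon cells alone. In bulk tissue, a change in the share of a cell type and a change in the RNA per cell cannot be told apart. The part of these cell types in the results on interferon-stimulated genes was not tested.

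Within the cut group, the level of these genes differed by library. Cut 3 was the highest cut library for 30 of the 43 members and cut 2 the lowest for 30. The same was not counted over all genes, so this order is not shown to be particular to the members. The median member stood at 0.27, -0.12 and 0.39 (log2, relative to the sham mean) in cut 1, 2 and 3. The medians over all genes tested were -0.03, -0.02 and 0.01. Without cut 3, 10 members rose and 6 fell, beside 28.5% and 29.7% of all genes tested in that fit. With the summed muscle level of each library as a covariate, 9 rose and 1 fell, beside 11.1% and 5.41% of all genes, and the median log2 fold change was 0.46. With the replicate number as a block, 11 rose and 4 fell, beside 21.7% and 17.3% of all genes. Leaving out a library in turn left 2 to 10 members higher, and the share of all genes moved with it. Higher were 6 members without sham 1 (10.6% of all genes), 2 without sham 2 (7.39%), 4 without sham 3 (9.19%), 5 without cut 1 (10.8%), 9 without cut 2 (12.6%) and 10 without cut 3. Lower were 1 member without sham 1 (4.55% of all genes), 0 without sham 2 (2.95%), 1 without sham 3 (5.4%), 0 without cut 1 (4.68%), 1 without cut 2 (6.05%) and 6 without cut 3.

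**Figure D1:**
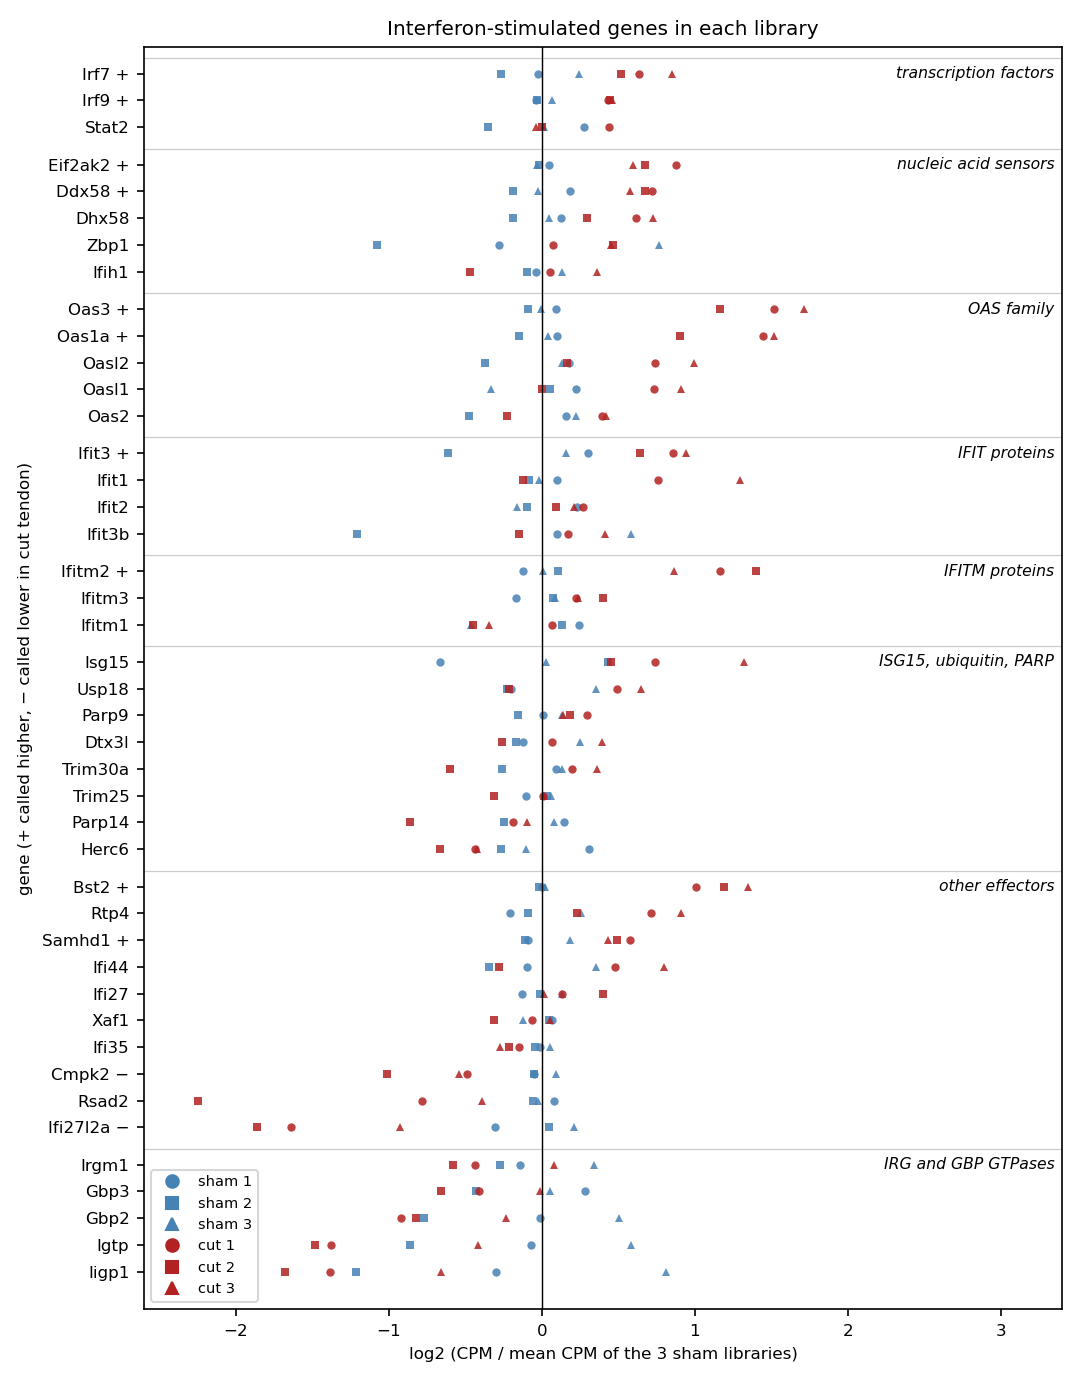
Level of each of the 43 interferon-stimulated genes in each library, as log2 of its CPM over the mean of the 3 sham libraries (x axis), grouped by role and ordered by fold change (y axis). Points are single libraries, blue for sham and red for cut tendon, and + or − marks genes called higher or lower; Bst2, Oas3, Oas1a and Ifitm2 show separate groups, while the GTPases at the bottom lie mostly to the left with sham 3 farthest right for 4 of 5.

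Of the transcription factors that carry the interferon signal into the nucleus, Irf7 and Irf9 rose and Stat2 was not called. Irf9 is the DNA-binding part of the complex that type I interferon activates. It stood at 14.8, 14.9 and 15.9 CPM in sham 1 to 3 and at 20.5, 20.7 and 20.9 CPM in cut 1 to 3, and the log2 fold change was 0.44 ± 0.10 (SE; edgeR adjusted p = 0.022). The cut libraries differed by an SD of only 0.187 CPM, and all lay above the sham libraries. Exons of Rnf31 overlap those of Irf9 on the same strand. Irf7, the factor that amplifies interferon-alpha production, stood at 8.01, 6.78 and 9.66 CPM in sham and at 12.7, 11.7 and 14.7 CPM in cut tendon (log2 fold change 0.68 ± 0.18; edgeR adjusted p = 0.0337). Stat2, the signal transducer that works with IRF9, was 34.4 ± 7.34 CPM in sham and 38.1 ± 7.27 CPM in cut tendon (n = 3), and the groups overlapped. The Irf7 and Irf9 calls were lost when any of sham 1, sham 2, sham 3, cut 1 or cut 2 was left out, with edgeR adjusted p of up to 0.126 for Irf7 and 0.107 for Irf9, and that of Irf9 also with the muscle covariate (edgeR adjusted p = 0.0757).

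Of the 5 sensors of viral nucleic acid, 2 rose and none fell (40% and 0%, beside 20.4% and 12.3% of all genes tested). All 5 fold changes were positive (median 0.56), beside 7072 of all 14561 genes tested. With so few genes, these differences were not tested. Eif2ak2, the RNA-activated kinase PKR that halts protein synthesis, stood at 22.1, 21.1 and 20.9 CPM in sham and at 39.2, 34.0 and 32.3 CPM in cut tendon. Its log2 fold change was 0.72 ± 0.12 (edgeR adjusted p = 0.00817). Ddx58, which encodes the RNA sensor RIG-I, stood at 28.6, 22.1 and 24.8 CPM in sham and at 41.5, 40.2 and 37.6 CPM in cut tendon (log2 fold change 0.66 ± 0.13; edgeR adjusted p = 0.0138). For Eif2ak2 and Ddx58 the 3 cut libraries lay above the 3 sham libraries, and cut 1 was the highest. Ifih1, which encodes MDA5, the sensor of long double-stranded RNA, had close means (19.3 ± 1.62 and 19.6 ± 5.42 CPM, n = 3), with cut 2 the lowest and cut 3 the highest of all 6 libraries. Dhx58, which encodes their regulator LGP2, had separate groups but was not called (log2 fold change 0.56 ± 0.19; edgeR adjusted p = 0.0685), and it was called with DESeq2's Wald test (adjusted p = 0.0454). Zbp1, a sensor that can trigger cell death, spread from 1.63 to 5.84 CPM among the sham libraries alone. The Ddx58 call was lost without sham 2, sham 3 or cut 1 (edgeR adjusted p up to 0.0702) and with the muscle covariate (edgeR adjusted p = 0.0516), and the Eif2ak2 call without sham 2 (edgeR adjusted p = 0.0505).

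The oligoadenylate synthetases, which make the messenger that activates the RNA-degrading enzyme RNase L, included the member with the largest positive fold change. Of 5 members 2 rose and none fell (40% and 0%, beside 20.4% and 12.3% of all genes tested). All 5 fold changes were positive (median 0.67), beside 7072 of all 14561 genes tested, and these differences were not tested. Oas3 stood at 0.817, 0.719 and 0.764 CPM in sham and at 2.19, 1.72 and 2.52 CPM in cut tendon, which is 19 to 20 counts per sham library and 51 to 75 per cut library. The level was 2.79-fold higher in cut tendon (log2 fold change 1.48 ± 0.26; edgeR adjusted p = 0.0102). Oas1a stood at 1.39, 1.17 and 1.34 CPM in sham and at 3.55, 2.43 and 3.72 CPM in cut tendon (log2 fold change 1.31 ± 0.25; edgeR adjusted p = 0.0126). For both genes the groups were separate, with cut 2 the lowest cut library. Of the Oas1a sequence, 57.6% (in stretches of 50 bases) is shared with other genes, its near copy Oas1g among them, so its count is uncertain to that extent. Oasl2, which encodes a family member with ubiquitin-like domains, was 9.11 ± 1.80 CPM in sham and 14.5 ± 4.01 CPM in cut tendon and was not called (edgeR adjusted p = 0.0873), but was called higher with the replicate block (edgeR adjusted p = 0.0275) and without cut 2 (edgeR adjusted p = 0.0416). Oasl1 and Oas2 had log2 fold changes of 0.60 ± 0.34 and 0.22 ± 0.27 and overlapping groups. Without sham 2 the calls of Oas3 and Oas1a were lost (edgeR adjusted p = 0.0545 and 0.0637), and that of Oas1a also without sham 3. Oas2, Oas3 and Oas1a lie close together on chromosome 5, between 120730333 and 120907544 (GRCm38.p6, RefSeq).

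Of the IFIT proteins, which bind viral RNA and stop its translation, Ifit3 rose and the other 3 were not called. The share that rose (25%) is near the 20.4% of all genes tested and is not a result about this family. Ifit3 stood at 11.3, 5.98 and 10.2 CPM in sham and at 16.6, 14.3 and 17.6 CPM in cut tendon (log2 fold change 0.82 ± 0.25; edgeR adjusted p = 0.048). The groups were separate, but sham 2 lay well below sham 1 and 3. The call was lost without any of sham 1, sham 2, sham 3, cut 1 or cut 2 (edgeR adjusted p up to 0.120), and with the muscle covariate (edgeR adjusted p = 0.0639). Of the Ifit3 sequence 51.2% is shared with other genes, Ifit3b among them. Ifit3b itself was 3.93 ± 2.10 CPM in sham and 4.40 ± 0.846 CPM in cut tendon. Ifit1, a standard readout of type I interferon, stood at 6.09, 5.38 and 5.61 CPM in sham and at 9.64, 5.23 and 14.0 CPM in cut tendon, so that cut 2 was below every sham library and cut 3 was the highest. The Ifit1 difference was not called (log2 fold change 0.76 ± 0.35; edgeR adjusted p = 0.131), but it was called higher without cut 2 (1.05; edgeR adjusted p = 0.0232) and with the muscle covariate (1.44; edgeR adjusted p = 0.00700). Ifit2 had a log2 fold change of 0.19 ± 0.14 and overlapping groups. The 4 IFIT members lie together on chromosome 19, over 99.5 kb from 34550550 to 34650009 (GRCm38.p6, RefSeq), and their fold changes ran from 0.16 to 0.82 on the log2 scale.

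The IFITM proteins, which hold back virus entry at membranes, include the most abundant members by FPKM, which divides the count by gene length and library total. Ifitm2 (chr7:140954837-140959686) had the highest mean FPKM of the 43 members (67.4 ± 5.33 in sham and 151 ± 30.1 in cut tendon, n = 3). In CPM it stood at 38.8, 45.6 and 42.5 in sham and at 95.0, 112 and 77.0 in cut tendon, a 2.23-fold difference (log2 fold change 1.16 ± 0.17; edgeR adjusted p = 0.00634). Every cut library was at least as high as 77.0 CPM and every sham library at most 45.6 CPM. The call held in all 18 alternative settings, and without single libraries the log2 fold change ran from 1.03 to 1.29. Of the Ifitm2 sequence 48.5% is shared with other annotated genes, and Gm45717 overlaps it on the same strand. Ifitm3, the best known antiviral member, stood at 39.6, 46.8 and 47.2 CPM in sham and at 52.0, 58.7 and 52.4 CPM in cut tendon. Its groups were separate by a small margin and it was not called (log2 fold change 0.29 ± 0.12; edgeR adjusted p = 0.113). Ifitm1 was lower in level, at 2.21 ± 0.537 CPM in sham and 1.90 ± 0.374 CPM in cut tendon, with overlapping groups.

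**Figure D2:**
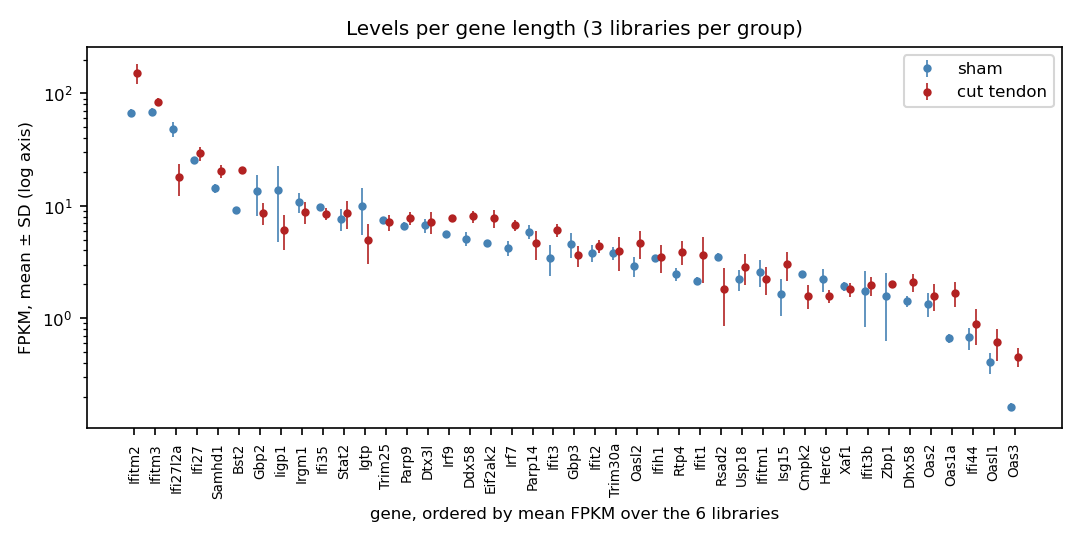
Mean FPKM ± SD (log axis) of each of the 43 genes in 3 sham (blue) and 3 cut libraries (red), ordered by the mean over all 6 libraries. Ifitm2 and Ifitm3 are the most abundant per length, and Oas3, at 0.162 FPKM in sham and 0.455 in cut tendon, is the least abundant.

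The 10 other effectors held the clearest changes in both directions, with 2 that rose and 2 that fell. The share that rose (20%) is near the 20.4% of all genes tested. The share that fell was also 20%, beside 12.3% of all genes, a difference that was not tested. Bst2 (chr8:71534255-71537472), which encodes tetherin, a protein that keeps budding virus on the cell surface, stood at 7.07, 6.97 and 7.18 CPM in sham and at 14.2, 16.1 and 18.0 CPM in cut tendon. The level was 2.28-fold higher (log2 fold change 1.19 ± 0.14; edgeR adjusted p = 0.0044), the smallest adjusted p among the members. The sham libraries differed by an SD of 0.106 CPM, the cut libraries by 1.89 CPM, and the call held in all 18 alternative settings. Samhd1, which encodes a dNTP hydrolase that starves virus replication of nucleotides, stood at 66.0, 65.2 and 80.0 CPM in sham and at 105, 98.9 and 95.1 CPM in cut tendon (log2 fold change 0.50 ± 0.13; edgeR adjusted p = 0.0311). The Samhd1 groups were separate, but the call was lost without any of sham 1, sham 2, sham 3, cut 1 or cut 2 (edgeR adjusted p up to 0.136) and with the muscle covariate (edgeR adjusted p = 0.0934).

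The 2 members that fell are also effectors. Ifi27l2a (chr12:103433873-103443680), which encodes a small protein induced by interferon-alpha, stood at 34.3, 43.9 and 49.1 CPM in sham and at 13.6, 11.7 and 22.3 CPM in cut tendon, 2.68-fold lower (log2 fold change -1.42 ± 0.27; edgeR adjusted p = 0.0132). All 3 cut libraries lay below all 3 sham libraries, with cut 3 the highest of them. Its neighbour Ifi27, whose RefSeq span on chromosome 12 overlaps that of Ifi27l2a on the opposite strand, stood at 31.0, 33.7 and 37.2 CPM in sham and at 37.3, 44.7 and 34.4 CPM in cut tendon, with overlapping groups (log2 fold change 0.19 ± 0.14). The Ifi27l2a call was lost without sham 2 (edgeR adjusted p = 0.0546) and without cut 1 (edgeR adjusted p = 0.052), with log2 fold changes of -1.41 and -1.32. Cmpk2, a mitochondrial nucleotide kinase, stood at 7.64, 7.65 and 8.44 CPM in sham and at 5.64, 3.91 and 5.44 CPM in cut tendon (log2 fold change -0.66 ± 0.19; edgeR adjusted p = 0.0391). The Cmpk2 groups were separate, but the call was lost without any of sham 1, sham 2, sham 3, cut 1 or cut 2 (edgeR adjusted p up to 0.109), with upper quartile scaling, in 2 of the 3 fits on FPKM, and with the muscle covariate (log2 fold change -0.45; edgeR adjusted p = 0.273). Rsad2, which encodes viperin and lies next to Cmpk2 on chromosome 12, stood at 14.1, 12.8 and 13.1 CPM in sham and at 7.74, 2.80 and 10.1 CPM in cut tendon. Every cut library was below every sham library for Rsad2, but the spread among the cut libraries was wide and it was not called (log2 fold change -0.95 ± 0.43; edgeR adjusted p = 0.128). Without cut 3 Rsad2 was called lower (log2 fold change -1.33; edgeR adjusted p = 0.0154), and with the muscle covariate its log2 fold change was -0.16 (edgeR adjusted p = 0.803). Of the remaining effectors, Rtp4 had a log2 fold change of 0.64 ± 0.23 and was called higher only without cut 2 and with the muscle covariate or DESeq2's Wald test among the settings run. Ifi35 lay lower in all cut libraries without a call (log2 fold change -0.21 ± 0.12), and Ifi44 and Xaf1 had overlapping groups.

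Of the 8 members of the ISG15, ubiquitin and PARP group, which attach or remove small protein or ADP-ribose tags, edgeR called none, 1 had an unadjusted p under 0.05 (Herc6), and DESeq2's Wald test and limma-voom called 0. The median log2 fold change was 0.07, with 5 positive and 3 negative. Isg15, the ubiquitin-like protein that gives the family its name, stood at 0.776, 1.67 and 1.26 CPM in sham and at 2.06, 1.69 and 3.09 CPM in cut tendon. Its groups were separate, but only by the narrow gap between sham 2 and cut 2, and the count per library was between 19 and 92 (log2 fold change 0.88 ± 0.37; edgeR adjusted p = 0.112). Herc6, the enzyme that attaches ISG15 in mice, lay lower in all 3 cut libraries (11.7 ± 2.49 and 8.26 ± 0.755 CPM, n = 3; edgeR adjusted p = 0.0852), and 23.8% of its sequence is shared with other genes, Gm45193 among them. Usp18, the enzyme that removes ISG15 and restrains the receptor, was 3.95 ± 0.947 CPM in sham and 5.04 ± 1.45 CPM in cut tendon. Parp9 and Dtx3l, whose proteins act as a pair, had log2 fold changes of 0.21 ± 0.12 and 0.09 ± 0.20, and their exons overlap on opposite strands. Parp14, Trim25 and Trim30a had overlapping groups, each with cut 2 as its lowest library.

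All 5 interferon-inducible GTPases had negative fold changes, and edgeR called none of them (0 with an unadjusted p under 0.05, and 0 called by DESeq2's Wald test or limma-voom). These proteins coat and break the vacuoles of intracellular microbes, and are known as targets of type II interferon above all. Iigp1 stood at 39.1, 20.7 and 84.4 CPM in sham and at 18.4, 15.0 and 30.5 CPM in cut tendon. Igtp stood at 19.4, 11.2 and 30.6 CPM in sham and at 7.86, 7.32 and 15.3 CPM in cut tendon. In both genes sham 3 was far above the other sham libraries and cut 3 above the other cut libraries, and the ranges of the groups overlapped. The log2 fold changes were -1.17 ± 0.53 for Iigp1 and -1.01 ± 0.44 for Igtp (edgeR adjusted p = 0.128 and 0.117). Gbp2, Gbp3 and Irgm1 had log2 fold changes of -0.62 ± 0.35, -0.33 ± 0.25 and -0.28 ± 0.24, and the median of the 5 was -0.62. Without cut 3, Igtp, Iigp1 and Gbp2 were called lower (edgeR adjusted p = 0.0129, 0.0350 and 0.0491), beside 29.7% of all genes tested in that fit. With the muscle covariate the log2 fold changes of Irgm1 and Gbp3 turned positive (0.12 and 0.04), and those of Igtp and Iigp1 were -0.36 and -0.54 (edgeR adjusted p = 0.631 and 0.596). Summed over the 5, the level was 135, 85.6 and 213 CPM in sham and 75.6, 69.3 and 118 CPM in cut tendon.

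The same sign was seen in other genes of the GBP family, which are on a list of further interferon-inducible genes; this family was singled out after its values were seen. All 8 GBP genes tested had negative fold changes, beside 7489 of all 14561 genes tested. The 8 include Gbp2 and Gbp3, which are members already counted above. Of the 8, 4 fell (Gbp4, Gbp5, Gbp6 and Gbp9), beside 12.3% of all genes tested that fell. Gbp6 stood at 50.9, 67.0 and 98.5 CPM in sham and at 6.80, 5.30 and 19.2 CPM in cut tendon (log2 fold change -2.79 ± 0.55; edgeR adjusted p = 0.0135), and 90.2% of its sequence is shared with copies such as Gbp10 and Gm43302. Gbp4 had a log2 fold change of -1.74 ± 0.36 (edgeR adjusted p = 0.0155), and its exons overlap those of Gbp8 and Gbp9 on the same strand. Gbp5, which has almost no shared sequence, was 12.4 ± 4.03 CPM in sham and 5.90 ± 1.72 CPM in cut tendon (log2 fold change -1.06 ± 0.32; edgeR adjusted p = 0.0465). The Gbp5 call was lost without any of sham 1, sham 2, sham 3, cut 1 or cut 2 (edgeR adjusted p up to 0.135). It was also lost with the muscle covariate (log2 fold change -0.61; edgeR adjusted p = 0.295). Of 18 settings, 16 kept the calls of Gbp4 and Gbp6, 13 that of Gbp9 and 11 that of Gbp5. The number of GBP genes that fell was 4 in all 6 libraries and 6 without cut 3 (29.7% of all genes). It was 3 without cut 2 (6.05% of all genes) and 0 without cut 1 (4.68%). It was 2 without sham 1 (4.55%) or sham 3 (5.4%) and 1 without sham 2 (2.95%). With the muscle covariate 1 fell (5.41% of all genes), and 3 of the 8 fold changes were positive. Without sham 3 or cut 1, 1 of the 8 was positive. Of the 7 immunity-related GTPase genes tested, the members Irgm1, Igtp and Iigp1 among them, 6 had negative fold changes. None was called by edgeR, though 1 had an unadjusted p under 0.05 and DESeq2's Wald test called Tgtp1 lower (limma-voom called 0). With the replicate block edgeR called 4 lower and without cut 3 also 4, beside 17.3% and 29.7% of all genes tested. It called 0 without any of sham 1, sham 2, sham 3, cut 1 or cut 2. With the muscle covariate it also called 0, and 3 of the 7 fold changes were positive. Tgtp1 shares 91.4% of its sequence with other annotated genes, Tgtp2 and Gm12185 among them. Endothelial cells and macrophages both express these GTPases, and their marker sums moved in opposite directions between the groups; their part in the result was not tested.

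**Figure D3:**
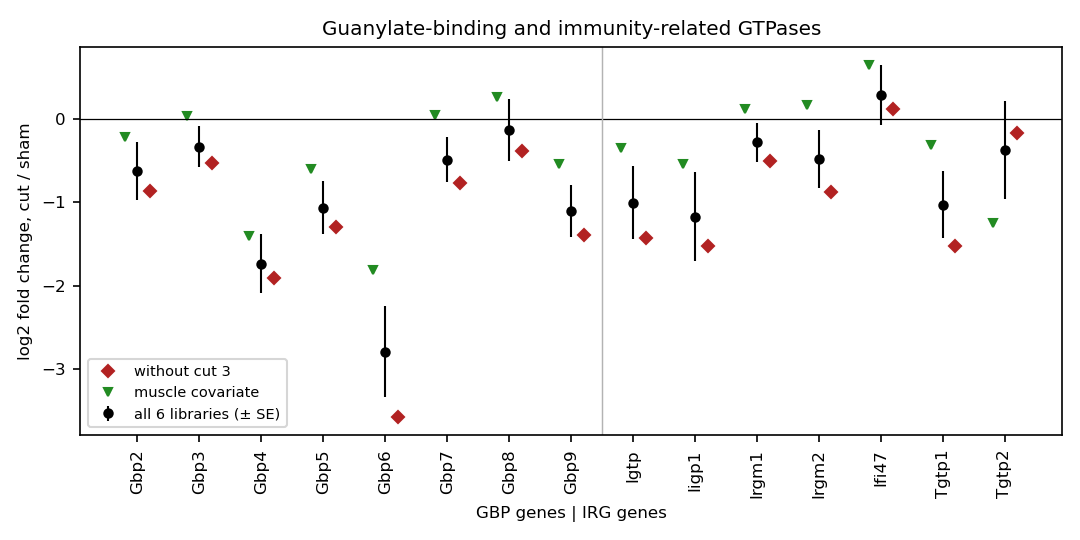
Log2 fold change, cut over sham (y axis), of 8 GBP and 7 immunity-related GTPase genes (x axis), with black points ± SE from all 6 libraries, red diamonds without cut 3 and green triangles with the skeletal muscle covariate. Leaving out cut 3 moves most values down (Gbp6 to -3.57) and the covariate moves most of them up (Gbp6 to -1.81).

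Interferon transcripts themselves were at or near 0. Of 21 interferon genes in the table none passed the filter on low counts, and 16, Ifnb1 among them, had no count in any library. All 21 together had 20 counts, of which the sham libraries held 2, 0 and 2 and the cut libraries 4, 8 and 4. Ifng, the type II interferon, had 0, 0 and 2 counts in sham and 3, 0 and 4 in cut tendon. A count of 0 allows a level of up to 0.0957 to 0.125 CPM, so lower levels were not detectable at this depth. This limit is 3 counts over the library total without TMM normalization, for counting error only.

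The receptors and their kinases were expressed in all libraries, and the chains of the type I receptor rose. Of 10 receptor and JAK-STAT genes 3 rose and 1 fell (30% and 10%, beside 20.4% and 12.3% of all genes tested), with a median log2 fold change of 0.17. Ifnar1, a chain of the type I receptor, stood at 53.0, 51.6 and 46.4 CPM in sham and at 109, 111 and 80.8 CPM in cut tendon (log2 fold change 0.99 ± 0.16; edgeR adjusted p = 0.00813), with separate groups and a call in all 18 settings. Il10rb, a chain shared by the receptors of type III interferon and interleukin 10, had a log2 fold change of 0.69 ± 0.11 (edgeR adjusted p = 0.00814). Of the Il10rb sequence 29.0% is shared with other genes, among them Gm21970, which overlaps Il10rb and Ifnar2 on the same strand. Ifnar2, named after its values were seen, was 23.9 ± 1.43 CPM in sham and 32.4 ± 3.44 CPM in cut tendon (log2 fold change 0.44 ± 0.12; edgeR adjusted p = 0.0384), a call kept in 8 of 18 settings. Ifngr1, the ligand-binding chain of the type II receptor, fell from 96.8 ± 11.1 CPM to 63.8 ± 5.75 CPM (log2 fold change -0.60 ± 0.14; edgeR adjusted p = 0.0224). Its libraries were 84.2, 105 and 101 CPM in sham and 67.4, 57.1 and 66.7 CPM in cut tendon, and the call was lost without sham 2, sham 3, cut 1 or cut 2 (edgeR adjusted p up to 0.0878) and with the muscle covariate (edgeR adjusted p = 0.0968).

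Of 16 genes that detect nucleic acid or relay it to interferon production, 8 rose and 1 fell (50% and 6.25%, beside 20.4% and 12.3% of all genes tested), with a median log2 fold change of 0.61. Tmem173, which encodes the DNA-sensing adaptor STING, stood at 8.95, 10.3 and 8.86 CPM in sham and at 32.4, 41.9 and 26.4 CPM in cut tendon (log2 fold change 1.84 ± 0.19; edgeR adjusted p = 0.00387). Tlr9, the endosomal receptor for unmethylated DNA, rose from 2.51 ± 0.320 CPM to 7.17 ± 1.37 CPM (log2 fold change 1.51 ± 0.21; edgeR adjusted p = 0.00612). Both had separate groups and were called in all 18 settings. Mavs, the mitochondrial adaptor of RIG-I and MDA5, stood at 86.5, 94.1 and 101 CPM in sham and at 27.2, 24.4 and 49.3 CPM in cut tendon (log2 fold change -1.48 ± 0.28; edgeR adjusted p = 0.0126). The Mavs level in cut 3, the library with muscle transcripts near the sham level, lay between the other cut libraries and sham. With the muscle covariate its log2 fold change was -0.90 (edgeR adjusted p = 0.00654), and the part of muscle content was not tested. The Mavs call was kept in 17 of 18 settings and lost without sham 2 (edgeR adjusted p = 0.0522). So Ddx58 rose and the gene of its adaptor fell in the same libraries. Without any of sham 1, sham 2, sham 3 or cut 1, 5 genes of this list rose, beside 7.39% to 10.8% of all genes in those fits.

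Of 6 negative regulators of interferon signalling 3 rose and 1 fell (50% and 16.7%, beside 20.4% and 12.3% of all genes tested). Ptpn6, a phosphatase of blood cells, rose from 4.99 ± 0.881 CPM to 15.3 ± 2.96 CPM (log2 fold change 1.62 ± 0.21; edgeR adjusted p = 0.00534). Socs3, an inhibitor of JAK kinases that several cytokines induce, stood at 22.4, 19.6 and 20.4 CPM in sham and at 55.9, 76.6 and 30.7 CPM in cut tendon (log2 fold change 1.39 ± 0.32; edgeR adjusted p = 0.0212). The Socs3 level in cut 3 was the closest to sham, and its log2 fold change was 0.49 with the muscle covariate. Pias1, an inhibitor of cytokine signalling, fell from 52.4 ± 1.41 CPM to 37.8 ± 3.62 CPM (log2 fold change -0.47 ± 0.12; edgeR adjusted p = 0.026). The Socs3 and Pias1 calls were lost without any of sham 1, sham 2, sham 3 or cut 1, and that of Pias1 also without cut 2 (edgeR adjusted p up to 0.0841 and 0.0947). Without any of sham 1, sham 2, sham 3 or cut 1, and with the muscle covariate, 1 gene of this list rose and 0 fell. With the replicate block or without cut 3, 2 fell, beside 17.3% and 29.7% of all genes.

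**Figure D4:**
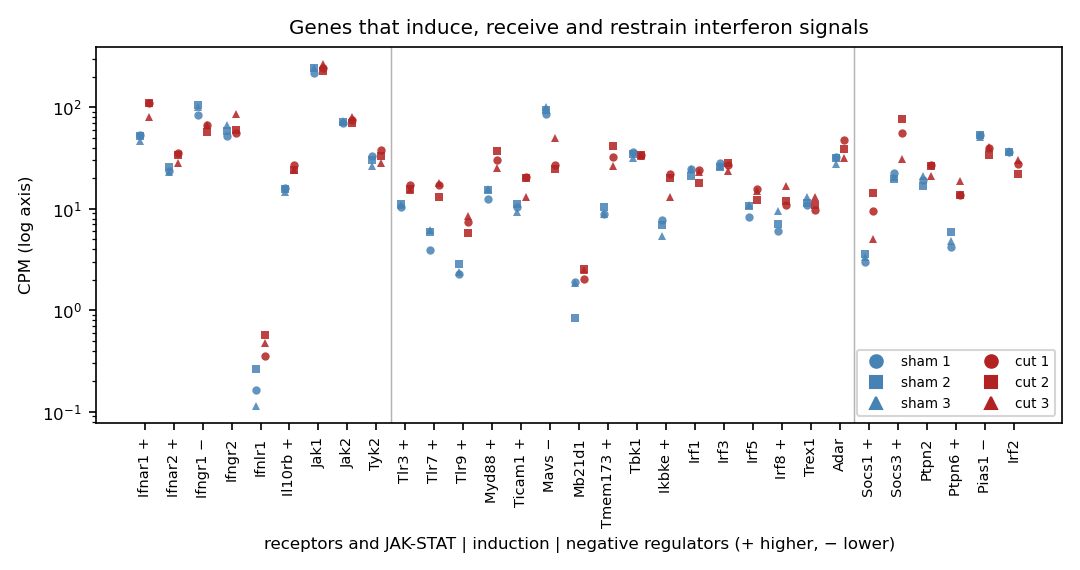
CPM in each library (log axis) of 9 receptor and JAK-STAT genes, the genes of interferon induction and the negative regulators (x axis), sham in blue and cut tendon in red, with + or − for genes called higher or lower. Ifnar1, Tmem173 and Ptpn6 show separate groups with cut tendon above, and Mavs and Ifngr1 show cut tendon below.

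Further interferon-inducible genes outside the set were mixed: of 38 tested, 6 rose and 5 fell (15.8% and 13.2%, beside 20.4% and 12.3% of all genes), with a median log2 fold change of 0.05. Oas1b and Cxcl11 are not analysed here. Tor3a, an ATPase of the endoplasmic reticulum, rose from 17.4 ± 1.27 CPM to 31.3 ± 1.61 CPM (log2 fold change 0.85 ± 0.11; edgeR adjusted p = 0.00551) and was called in all 18 settings. Besides the 4 GBP genes, Cd274, which encodes the ligand PD-L1 and is named after its values were seen, fell from 13.4 ± 2.02 CPM to 5.37 ± 2.05 CPM (log2 fold change -1.32 ± 0.31; edgeR adjusted p = 0.0224), a call lost without any of sham 1, sham 2, sham 3 or cut 1 and with the muscle covariate (log2 fold change -0.75; edgeR adjusted p = 0.109). With the replicate block 9 of the 38 fell and without cut 3 10 fell, beside 17.3% and 29.7% of all genes tested in those fits. The number that rose was 1 without sham 1 or sham 2 (10.6% and 7.39% of all genes) and 2 without cut 1 (10.8%). The number that fell was 1 without sham 2 or cut 1 (2.95% and 4.68% of all genes). It was 2 without sham 1 or sham 3 (4.55% and 5.4%). Of 12 genes of MHC class I presentation, which interferon also induces, 1 rose and none fell (8.33% and 0%, beside 20.4% and 12.3% of all genes). Of these 12 genes 2 had an unadjusted p under 0.05, and DESeq2's Wald test called 1 lower. Tapbp, which loads peptide on MHC class I, rose from 122 ± 5.91 CPM to 171 ± 17.6 CPM (log2 fold change 0.50 ± 0.14; edgeR adjusted p = 0.0367), a call lost without any of sham 1, sham 2, sham 3, cut 1 or cut 2 (edgeR adjusted p up to 0.131) and with the muscle covariate (edgeR adjusted p = 0.145). Nlrc5, the transcriptional activator of these genes, was 26.4 ± 8.47 CPM in sham and 15.4 ± 1.70 CPM in cut tendon without a call (log2 fold change -0.78 ± 0.26; edgeR adjusted p = 0.0573), and was called lower without sham 2 or cut 3 (edgeR adjusted p = 0.033 and 0.0493).

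**Figure D5:**
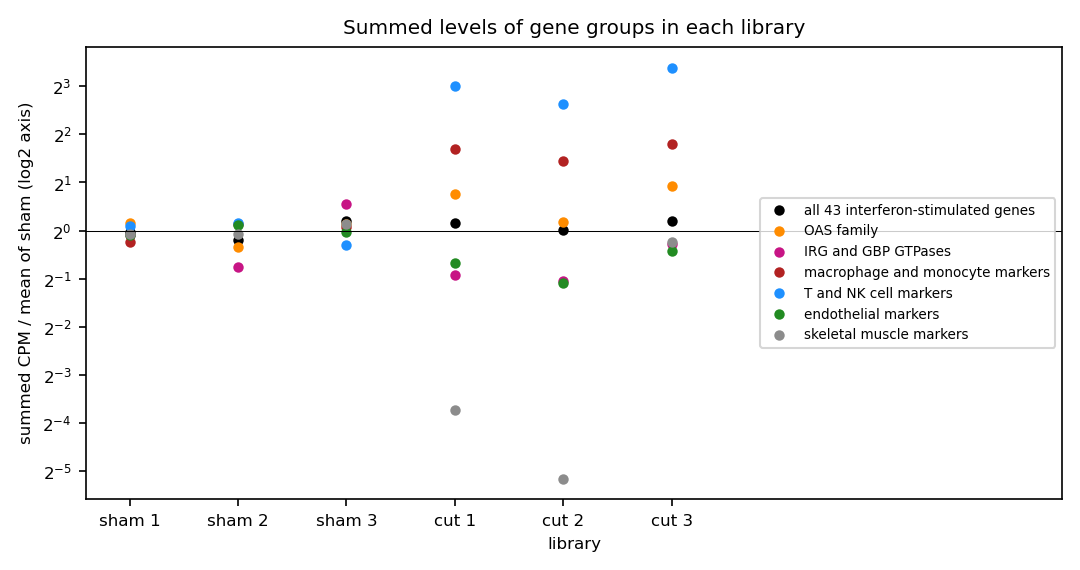
Summed CPM of gene groups in each of the 6 libraries (x axis), divided by the mean of the 3 sham libraries (y axis, log2 axis). The sum of all 43 interferon-stimulated genes stays near 1 in every library (805, 712 and 935 CPM in sham and 908, 819 and 943 CPM in cut tendon), while the marker sums of macrophages and of T and natural killer cells are higher in every cut library and the muscle sum of cut 3 is near sham.

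The summed level of the 43 members was 805, 712 and 935 CPM in sham 1 to 3 and 908, 819 and 943 CPM in cut 1 to 3. These ranges overlap: sham 3 was higher than cut 1 and cut 2. The sum of the OAS members was 19.7, 13.9 and 19.3 CPM in sham and 29.8, 20.01 and 33.5 CPM in cut tendon, and that of the IFITM members 80.9, 94.9 and 91.3 CPM in sham and 149, 172 and 131 CPM in cut tendon. In both families every cut library was above every sham library, for OAS by the narrow gap between sham 1 and cut 2. Oasl2 and Oas2, which were not called, held most of the OAS sum. The sums of the transcription factors and of the sensors were separate in the same way. Those of the IFIT, GTPase, ISG15 and other effector groups overlapped. No test was made on these sums.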

How the data were processed

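RNA of 6 Achilles tendon samples was isolated with a mirVana kit and sequenced after removal of ribosomal RNA with a stranded library kit, per the labels' protocols. Trimmomatic, HISAT2 and the build GRCm38.p6 are named, without versions, per the submitters' processing notes. The counting program and its strand setting are not given in the sources used here. Where genes overlap on opposite strands, their counts are therefore uncertain. Among the called members, exons of Irf7 overlap those of Phrf1 in this way, and exons of Eif2ak2 those of Gm26637 and n-R5s29. The deposited tables held whole read counts per gene, and FPKM made by the authors from those counts (the implied gene length was whole within 0.01 bases for 100% of genes with counts). No other column of per-sample values was present.

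Groups and replicate numbers came from the labels. No pair of libraries agreed within sampling noise (the closest, sham 1 and 2, had a chi-square of 15.6 per gene). The count analysis used edgeR 4.0.16 in R 4.3.3. The edgeR function filterByExpr kept 14561 genes (7317 were not tested), libraries were scaled by TMM, and cut tendon was compared with sham by the quasi-likelihood test, at a Benjamini-Hochberg adjusted p of 0.05 over all tested genes. The SE was obtained from the fold change and its F statistic. The common biological coefficient of variation was 0.296. Logarithms of CPM ratios used 0.1 CPM as a pseudocount. The fit was also run on simulated counts with known changes. That simulation had no differences in tissue content among libraries, so it does not show how the test behaves on these data.

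The 45 genes, the role groups and the pathway and marker lists were chosen with earlier results of these data known. Values in every library are given for called members and the 5 members with the highest FPKM; of each pathway list the 2 genes with the smallest p are named, and, where genes were called both ways, the leading gene of the opposite direction.

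The replicate numbers were checked for pairing: deviations from the group means correlated at 0.26, 0.13 and 0.41 between same-numbered sham and cut libraries, all over 0.1. Libraries with different numbers correlated at 0.24 (sham 1 with cut 2), 0.11 (sham 2 with cut 1) and -0.33 to -0.15 (the other 4 pairs), so numbers 1 and 2 are hardly told apart. By the limit of 0.1 the fit with a replicate block is given where it changes a call. The labels do not say what a number shares. Alternatives were DESeq2 1.42.0 size factors, upper quartile scaling, library sizes without muscle and erythroid genes, no filter, a filter of 10 counts in each library of one group, DESeq2's Wald test, limma-voom (limma 3.58.1), limma on log2(FPKM + 1) and log2(FPKM + 0.1), the block, the muscle level as a covariate, and leaving out each library. Shared sequence was counted on the longest protein-coding GENCODE M21 transcript of a gene. It is the share of its stretches of 50 bases found in transcripts of other genes. Joins used pandas 2.3.3 (Python 3.11.15). One gene of the receptor list is counted in that list but not reported here by name.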

Additional observations from a re-analysis of the deposited data

How the results depend on the processing

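The number of members that fell (2) was 1 with upper quartile scaling, with limma on log2(FPKM + 0.1), with limma on log2(FPKM + 1) without a filter and with the muscle covariate, and 4 with the replicate block. Leaving out a library in turn gave 2 to 10 members that rose and 0 to 6 that fell (0 without sham 2 or cut 1, 6 without cut 3), with medians of 0.11 to 0.30. The median log2 fold change was 0.46 with the muscle covariate. Counts of the pathway lists moved as well: with the muscle covariate 0 receptor genes fell (1 with all libraries and no covariate) and 0 genes of MHC class I presentation rose (1 without it), and without a filter on low counts 0 of the latter rose. The cause of these changes was not tested. Fits without a library compare 2 libraries with 3. The replicate block, which rests on the shared numbers of the labels, additionally called Oasl2 higher and Igtp and Iigp1 lower, for 11 higher and 4 lower in all, and changed no other call of a member. Of the 12 calls, Bst2 and Ifitm2 held in all 18 settings, while Ifit3 and Cmpk2 held in 9, Irf9 and Samhd1 in 12, Irf7 in 13, Ddx58 in 14, Oas1a and Ifi27l2a in 16, and Oas3 and Eif2ak2 in 17. No called member changed sign in any of them. Members of low level, such as Oas3 with 19 to 75 counts per library, are limited by depth.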

Other observations

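Markers of other cell types that make or answer interferon were measured in the same libraries. Plasmacytoid dendritic cells are the classical makers of type I interferon. Of their 7 markers none was called by edgeR (5 tested, 0 with an unadjusted p under 0.05, and 0 called by DESeq2's Wald test or limma-voom), and Siglech stood at 2.25, 1.33 and 2.06 CPM in sham and at 0.999, 0.574 and 1.38 CPM in cut tendon. The list also holds Cox6a2, a muscle gene, and Tcf4, a gene of many cell types, which make up nearly all of its sum. Of 4 neutrophil markers tested 1 rose, with sums of 4.47 to 7.98 CPM in sham and 14.6, 8.13 and 14.7 CPM in cut tendon. The 1 B cell marker tested rose by edgeR's test, but not by limma-voom. All 5 adipocyte markers fell and 4 of 5 chondrocyte markers rose. Of 5 erythroid markers tested edgeR called none (4 had an unadjusted p under 0.05, DESeq2's Wald test called 4 lower and limma-voom 0). The part of these cells in the levels of the interferon-stimulated genes was not tested.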
